A study of Homo sapiens with 5 samples.

Results

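The short arm of chromosome 19 held 188 of the 3554 regions (5.29%) at which BG4 peaks were called in at least 2 of 4 replicates of LNCaP cells. Genome-wide, 3554 of 7520 merged regions (47.3%) met that rule. BG4 is an antibody fragment that recognises G-quadruplexes, and LNCaP is an established line of androgen-responsive prostate cancer cells. The series has 4 BG4 pull-downs and 1 input, all from this 1 line with no treatment named, and each pull-down has a deposited list of peaks on hg19. Peaks of the lists that overlapped by at least 1 bp were merged, and a merged region was kept when peaks of at least 2 lists contributed and its start lay on chromosome 19 below 26 Mb. Measured height entered this choice only through the peak calls, so the heights of kept regions are not an unselected sample. Separate cultures are not named in the labels, and p-values measure only the spread between these lists, which may be technical.

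A G-quadruplex is a folded DNA structure in which runs of guanines on one strand stack as planar tetrads. Sequences able to fold this way are common at promoters and in GC-rich chromatin, and pull-downs with BG4 mostly recover sites in open chromatin. Chromosome 19 is known for its high gene density and GC content. Its short arm carries, next to the centromere, a large tandem array of KRAB zinc finger genes. These encode DNA-binding repressors, many of which act on transposable elements, and the array is known for heterochromatin marks over its gene bodies.

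To show the DNA of the arm, 5 promoters are given before the peak data. No BG4 region was linked to a promoter here. They come from RefSeq on GRCh38.p14, each as the 250 bases before the annotated start on the strand of the gene. Capitals mark a G-quadruplex motif, defined as 4 runs of at least 3 guanines separated by loops of 1 to 7 bases, searched on both strands, so that a motif on the other strand appears as runs of cytosines. Genes were placed by their order on the chromosome. For this comparison the cluster was set to run from ZNF682 to ZNF254. Where the zinc finger array itself begins and ends was not analysed. ZNF682 and ZNF254 are shown as the ends of the cluster so set and had no motif. ZNF492 is shown because its promoter was the only one of the cluster with a motif. CPAMD8 and HOMER3, genes that precede the cluster, are shown because they had the most motifs of that stretch, 4 each. HOMER3 encodes a scaffold protein of the Homer family. These are reference sequences and not the sequences under the peaks.
ZNF682 (chr19:20039506-20039755, minus strand): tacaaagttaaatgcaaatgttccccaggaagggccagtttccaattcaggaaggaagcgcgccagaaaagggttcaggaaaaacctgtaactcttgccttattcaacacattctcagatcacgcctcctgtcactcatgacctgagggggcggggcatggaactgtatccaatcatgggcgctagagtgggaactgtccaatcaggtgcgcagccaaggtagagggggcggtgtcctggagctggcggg
ZNF254 (chr19:24086937-24087186, plus strand): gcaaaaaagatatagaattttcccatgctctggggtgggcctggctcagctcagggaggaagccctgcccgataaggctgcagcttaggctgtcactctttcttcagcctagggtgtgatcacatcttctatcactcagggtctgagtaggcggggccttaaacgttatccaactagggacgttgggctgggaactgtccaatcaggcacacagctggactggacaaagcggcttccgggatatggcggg
ZNF492 (chr19:22634074-22634323, plus strand): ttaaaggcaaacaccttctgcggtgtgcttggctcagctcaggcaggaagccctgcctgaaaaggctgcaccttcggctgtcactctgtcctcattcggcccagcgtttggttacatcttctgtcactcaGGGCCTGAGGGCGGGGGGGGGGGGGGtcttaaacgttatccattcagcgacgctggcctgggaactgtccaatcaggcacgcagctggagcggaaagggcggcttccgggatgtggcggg
CPAMD8 (chr19:17026811-17027060, minus strand): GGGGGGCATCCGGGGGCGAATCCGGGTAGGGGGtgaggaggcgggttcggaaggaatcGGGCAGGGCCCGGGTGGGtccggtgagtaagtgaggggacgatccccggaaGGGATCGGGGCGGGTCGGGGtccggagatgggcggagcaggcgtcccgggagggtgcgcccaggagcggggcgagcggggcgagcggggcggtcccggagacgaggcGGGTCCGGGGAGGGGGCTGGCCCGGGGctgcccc
HOMER3 (chr19:18941218-18941467, minus strand): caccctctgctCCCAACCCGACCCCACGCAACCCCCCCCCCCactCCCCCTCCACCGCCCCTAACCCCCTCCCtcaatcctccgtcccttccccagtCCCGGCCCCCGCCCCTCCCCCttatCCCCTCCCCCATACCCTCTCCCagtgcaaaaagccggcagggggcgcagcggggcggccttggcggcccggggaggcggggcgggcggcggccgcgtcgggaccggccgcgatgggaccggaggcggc

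The motif was rare in promoters of the cluster. Of the 32 protein-coding ZNF genes between ZNF682 and ZNF254, 26 had a promoter in the RefSeq table, with 27 start sites in all. One of these 27 promoters held the motif (3.70%, 95% Wilson interval 0.657% to 18.3%), that of ZNF492, where the match includes a long unbroken run of guanines. Of the 720 promoters of genes that precede the cluster on the arm, 279 held it (38.8%, 35.3% to 42.4%). Over all 35116 promoters of the same length in the table, the share was 25%. All intervals of promoter shares cover counting error only.

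Zinc finger genes outside the cluster lay between these values. Among genes that precede the cluster, 9 of 51 promoters of ZNF genes held the motif (17.6%, 9.57% to 30.3%), against 234 of 571 promoters of the other protein-coding genes (41.0%, 37.0% to 45.1%). Beyond the cluster, 40 of 193 promoters of ZNF genes held it (20.7%, 15.6% to 27.0%) and 258 of 704 of the others (36.6%, 33.2% to 40.3%). The median GC content over the 300 bases from 250 before to 50 after the start was 56% in the cluster, 61% for ZNF genes before it and 66% for the other genes before it. With loops of up to 12 bases the share was 7.41% in the cluster and 59.0% in all genes before it. It was 39.2% for ZNF genes before the cluster and 37.8% over all promoters. With runs of only 2 guanines it was 100% in the cluster and 96.5% in all genes before it, so cluster promoters were not lower with this looser motif. Most promoters held that motif, 96.1% for ZNF genes before the cluster and 81.5% over all promoters.

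**Figure D1:**
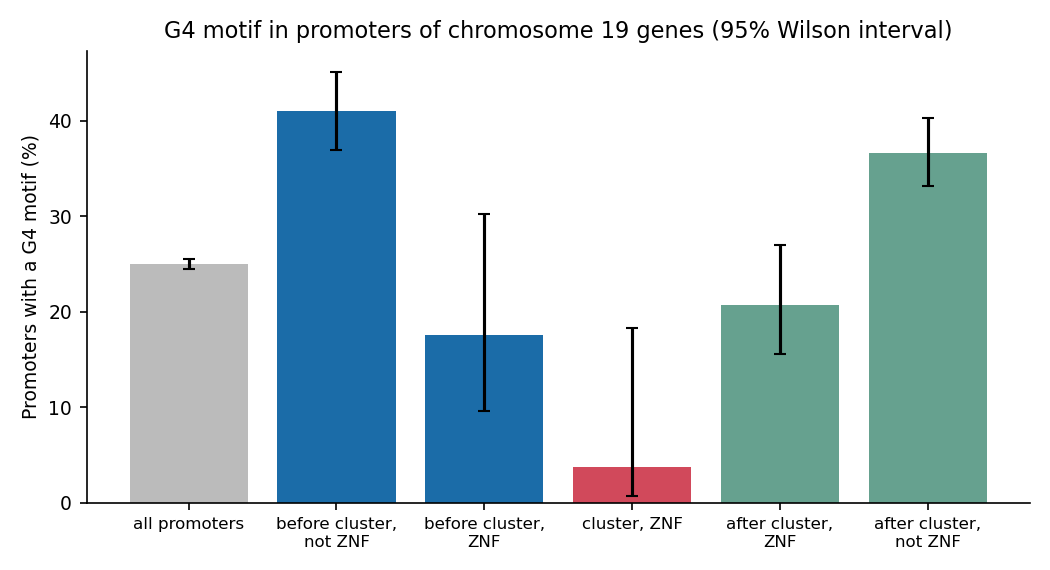
Share of promoters with a G4 motif (y axis, percent; 300 bases around the start site, RefSeq, GRCh38.p14) by gene group on chromosome 19, in gene order relative to the zinc finger cluster, with all promoters of the table in grey. Bars are shares and lines 95% Wilson intervals; the cluster stands lowest at 3.70% and the other genes before it highest at 41.0%.

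In the BG4 data, all 188 regions lay between 0 and 20 Mb and none in the zinc finger cluster window from 20 to 24.6 Mb. Whether the motif shares of promoters bear on this was not tested. The first 20 Mb held 9.40 regions per Mb (95% Poisson interval 8.10 to 10.8). The cluster window had 0 regions in 4.6 Mb (95% Poisson interval 0 to 0.802 per Mb). With 3 regions, or 0.652 per Mb, put in place of the count of 0, the first 20 Mb were 14.4-fold denser. This ratio rests on that stand-in and is not a strict lower bound. The other chromosomes held 1.09 regions per Mb between their first and last peaks. The window therefore lay below the genome at large, and the rest of the arm 8.60 times above it.

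Single lists showed this contrast as well. Replicate 1 had 300 peaks in the first 20 Mb and 3 in the cluster window. Replicate 2 had 91 and 0, replicate 3 had 191 and 1, and replicate 4 had 118 and 0. Per Mb these were 15, 4.55, 9.55 and 5.90 peaks in the first 20 Mb (8.75 ± 4.67, SD, n = 4) and 0.652, 0, 0.217 and 0 in the window (0.217 ± 0.307, SD, n = 4). The groups did not overlap, and each list had the higher density in the first 20 Mb. The difference of 8.53 ± 4.37 peaks per Mb (SD, n = 4) had p = 0.125 in an exact two-sided paired permutation test over lists, the smallest value that 4 lists allow. It stayed at 0.125 after Benjamini-Hochberg adjustment over the 5 such tests made here.

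Summed over lists, the densities differed 40.2-fold. That size depended on the few peaks in the window. It was 92 without replicate 1, which supplied 3 of the 4 peaks, and 91.1 with lists cut to equal length. With the border moved 500 kb towards the telomere it was 11.2.

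Each of the 4 peaks in the cluster window was called in 1 list alone. Replicate 1 had one from 20162752 to 20163281 with a fold over background of 5.35, one from 21264827 to 21265123 with a fold of 5.95, and one from 21324645 to 21324898 with a fold of 5.99. The fold is that of the summit as the authors' peak caller gave it, on the scale of its own list. These lay below the middle of that list, at percentiles 29.8, 41.7 and 42.1 of fold, and rested on 20, 16 and 15 reads at the summit. Replicate 3 had one from 23456895 to 23457252 with a fold of 9.04, at percentile 83.0 of its list, on 15 reads. The local background under the 4 peaks, as recovered from the deposited values, was 3.36, 2.13, 1.92 and 1.02 times the genome-wide level of the list. That level, here and below, was taken as the lowest background under any peak of the list and was not measured itself. Which genes lie at the positions of the 4 peaks was not analysed here.

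The promoters of the cluster resembled each other more than those of ZNF genes before it. Across 325 pairs of 26 cluster genes, 1 promoter each, the median identity in global alignments was 77.7% (range 54.3% to 91.0%). Across 1081 pairs of 47 ZNF genes before the cluster it was 45.7%. The part of this likeness in the low count of the window was not tested.

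Per gene the contrast was smaller than per Mb. In GRCh38.p14 the RefSeq table listed 614 protein-coding genes before the cluster and 34 in it. The 188 regions of the first 20 Mb came to 30.6 per 100 of those genes. The cluster had 0. With 3 regions put in place of 0 it would have 8.82 per 100 genes, a ratio of 3.47, which is again not a strict lower bound. The stretch beyond the cluster, with 153 regions and 803 genes, had 19.1 per 100. Gene counts and regions come from different builds and meet here only as totals of a stretch of chromosome.

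**Figure D2:**
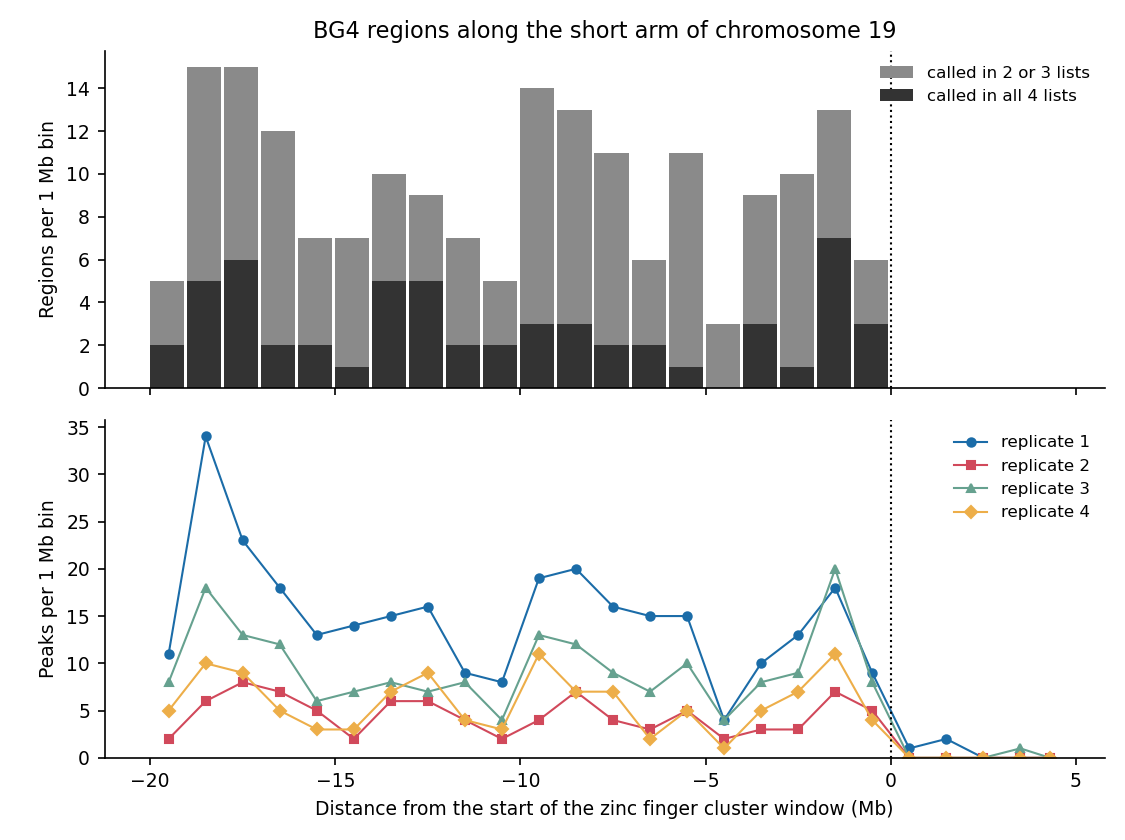
Regions called in at least 2 lists (upper panel, dark part called in all 4) and peaks of each replicate (lower panel) per 1 Mb bin, against the distance in Mb from the start of the zinc finger cluster window (dotted line); the last bin is 0.6 Mb wide. Every bin before the line holds 3 to 15 regions, and no bin past it holds any.

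Within the first 20 Mb the regions were spread over the whole stretch. Each of the 20 bins of 1 Mb held at least 3 regions, with a mean of 9.40 ± 3.57 (SD over bins) and a median of 9.50. The ratio of variance to mean was 1.36. The bins from 1 to 2 Mb and from 2 to 3 Mb were the densest, with 15 regions each (95% Poisson interval 8.40 to 24.7). The bins from 10 to 11 Mb with 14 and from 11 to 12 and 18 to 19 Mb with 13 each came next, well inside that interval. The bin from 15 to 16 Mb had the fewest, 3 (0.619 to 8.77), and was the only one of the 20 with no region called in all 4 lists. The bin from 18 to 19 Mb held 7 such regions, the most of any bin.

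The lists had similar profiles along the arm. In the bin from 1 to 2 Mb the lists had 34, 6, 18 and 10 peaks for replicates 1 to 4, and in the bin from 18 to 19 Mb 18, 7, 20 and 11. In the sparse bin from 15 to 16 Mb they had 4, 2, 4 and 1. Every list had a peak in each of the 20 bins. Spearman's rho between lists over the 20 bins was lowest, 0.62, between replicates 2 and 4 and highest, 0.81, between replicates 3 and 4. The lists share 1 input and the bins share each library, so these are descriptions.

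By stretches of 5 Mb the counts were 54, 38, 55 and 41 regions from the telomere inwards. The share of regions called in all 4 lists was 31.5%, 39.5%, 20% and 34.1%. The telomeric end had the most peaks found by 1 list alone. Of merged regions, 48.2%, 57.6%, 58.5% and 61.2% in the 4 stretches were called in at least 2 lists. The share was 54.8% on the arm and 47.3% genome-wide. Single bins ranged from 33.3% (0 to 1 Mb, 5 of 15) to 90% (16 to 17 Mb, 9 of 10), on few regions each. The bins from 1 to 2 Mb (15 of 40) and from 13 to 14 Mb (6 of 16) both had 37.5%. The first region of the arm started at 572176 and the last at 19887109.

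Gaps between neighbouring regions had a median of 61.8 kb on the short arm, 72.9 kb on the long arm and 246 kb on the other chromosomes. Of the 187 gaps on the short arm, 17 were shorter than 10 kb (9.09%), against 10.5% on the long arm and 6.02% elsewhere. These 17 gaps joined pairs only, so no run of 3 or more regions within 10 kb was present. The longest gap before the cluster ran from 15530175 to 16222062 (692 kb, with 1 peak of a single list inside), followed by one of 584 kb from 13274022 to 13858407 with no peak of any list. Beyond the last region the next one called in at least 2 lists lay 7.84 Mb away, across the centromere. That first long-arm region, from 27731911 to 27732438, was called in 4 of 4 lists with folds of only 1.62, 2.17, 1.86 and 2.03 over a background 305 to 313 times the genome level, whereas the last short-arm region had folds of 9.33, 4.77, 9.68 and 6.77 over 1.07 to 1.28 times.

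In 5 places regions lay less than 1 kb apart. The closest pair, 177 bp apart, was 10612631 to 10613069 and 10613247 to 10613618, each called in 2 lists. The pair from 3572499 to 3573000 and from 3573681 to 3574184 was called in 4 of 4 lists on both sides. Its first region had folds of 12.3, 6.18, 9.82 and 10.9 in replicates 1 to 4 and its second 8.15, 10, 5.05 and 6.92. Replicate 2 was thus lowest at the first region and highest at the second, whereas the other 3 lists were higher at the first.

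The short arm was dense against the rest of the genome in every list. Over 24.6 Mb, which include the sparse cluster window, the arm held 303, 91, 192 and 118 peaks in replicates 1 to 4. Per Mb these were 12.3, 3.70, 7.80 and 4.80. Elsewhere the lists had 2.08, 0.522, 1.16 and 0.682 peaks per Mb. The ratio was 5.93, 7.09, 6.71 and 7.03 (6.69 ± 0.533, SD, n = 4). It was above 1 in 4 of 4 lists (exact two-sided paired permutation test, p = 0.125, adjusted 0.125, the smallest value possible). Replicate 1, the longest list, had the lowest ratio.

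The arm was also denser than the long arm of its own chromosome, though by less. The long arm had 8.29, 2.77, 4.85 and 3.28 peaks per Mb over the 31.4 Mb between its first and last peaks. The ratio of short to long arm was 1.49, 1.33, 1.61 and 1.46 (1.47 ± 0.115, SD, n = 4), above 1 in 4 of 4 lists (exact two-sided paired permutation test, p = 0.125, adjusted 0.125). In regions called in at least 2 lists, the first 20 Mb had 1.93 times the density of the long arm.

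**Figure D3:**
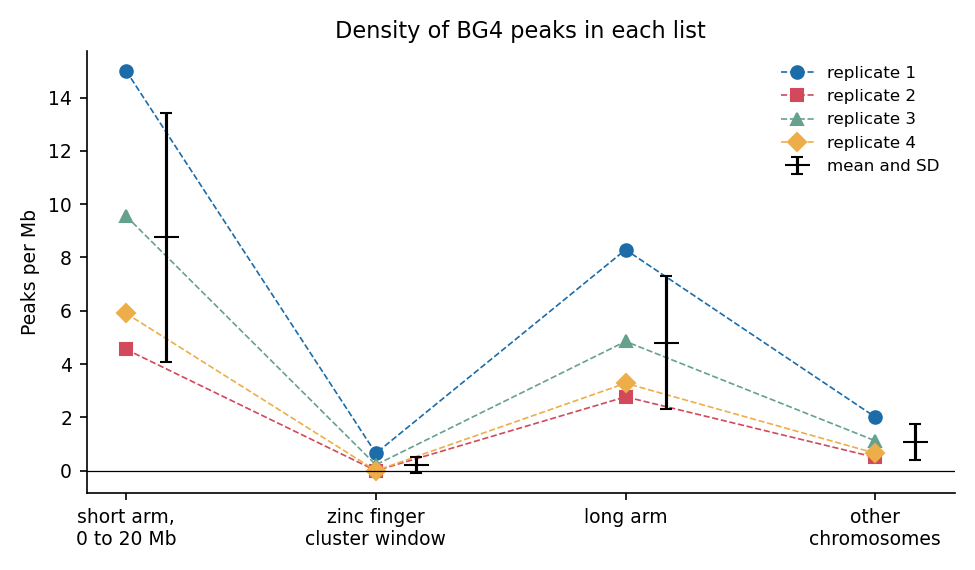
Peaks per Mb (y axis) of each BG4 list in 4 parts of the genome (x axis); colours and symbols are replicates, and black bars beside them the mean and SD of the 4 lists. In all 4 lists the first 20 Mb of the arm stand highest and the cluster window lowest, at 0 to 0.652 peaks per Mb.

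Regions of the short arm were found by more than 1 list somewhat more often than those of the whole genome, but not clearly more often than on the long arm. Of the 343 merged regions on the arm, 188 were called in at least 2 lists (54.8%, exact Clopper-Pearson interval 49.4% to 60.2%). The share was 47.3% over all 7520 merged regions of the genome. On the long arm it was 49.2% (43.5% to 54.9%), an interval that overlaps that of the short arm. Of the 188, 74 were called in 2 lists, 57 in 3 and 57 in all 4 (30.3%, 23.8% to 37.4%). Over all 3554 regions the share in all 4 lists was 24.9%, which lies inside that interval. It was 32.7% on the long arm. Intervals cover counting error only.

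The lists contributed unequally, in the order of their lengths. On chromosomes 1 to 22, X and Y, replicates 1, 3, 4 and 2 had 6476, 3645, 2144 and 1640 peaks. Shares of each list over all 3554 regions were not analysed here, so the counts below are not read as a trait of the arm. Replicate 1 called 181 of the 188 regions (96.3%), replicate 3 called 168 (89.4%), replicate 4 called 111 (59.0%) and replicate 2 called 87 (46.3%). The commonest pattern after all 4 lists was replicates 1 and 3 alone, with 51 regions, followed by replicates 1, 3 and 4 with 33 and replicates 1, 2 and 3 with 21. Only 7 regions lacked a peak of replicate 1. The number of regions fell from 188 to 121 without that list, and it was 106 with lists of equal length.

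Regions of the arm had a median width of 455 bp (283 to 1092 bp), against 445 bp elsewhere, and covered 94.5 kb in all. Their width rose with the number of lists merged, from 391.5 bp for 2 lists to 600 bp for 4, as merging itself brings about. In the 57 regions called in all 4 lists, the 4 summits lay within a median of 103 bp of each other. In 28 of them (49.1%) they lay within 100 bp, and the widest spread was 467 bp.

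Members had folds of 3.74 to 20.9 in replicate 1 (median 8.23), 3.29 to 12.5 in replicate 2 (6.80), 3.09 to 19.7 in replicate 3 (7.01) and 3.59 to 21.7 in replicate 4 (6.76). Taking all peaks of the arm, shared or not, the median fold was 6.88, 6.80, 6.89 and 6.68, and outside the arm 6.39, 6.73, 6.55 and 6.56. The ratio was 1.08, 1.01, 1.05 and 1.02 (1.04 ± 0.031, SD, n = 4), above 1 in 4 of 4 lists but small (exact two-sided paired permutation test, p = 0.125, adjusted 0.125). With lists of equal length it was above 1 in only 2 of 4. The share of arm peaks in the top 10% of their list by fold was 13.5%, 4.40%, 10.9% and 16.1%, against 10% over each list by definition.

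The local background under peaks was higher on the arm than elsewhere. In units of the genome-wide level of each list, its median on the arm was 1.92, 2.03, 1.92 and 2.35 for replicates 1 to 4. For all peaks outside the arm it was 1.68, 1.71, 1.71 and 1.71. The long arm alone had 1.71, 1.92, 1.77 and 1.92, so a raised background was not particular to the short arm. The ratio of the short arm to all peaks outside it was 1.14, 1.19, 1.12 and 1.38 (1.21 ± 0.119, SD, n = 4). It was above 1 in 4 of 4 lists (exact two-sided paired permutation test, p = 0.125, adjusted 0.125). Outside the arm, 6.26% to 9.90% of the peaks of a list sat within 1% of the genome-wide level itself. On the arm this held for 1 list alone, with 0.521% of its peaks, and for 0 in the other 3. All 4 lists use the same input, so these are not 4 independent measurements of it. The part of this background in the density of the arm was not tested.

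Of the 188 regions, 9 had a background of at least 5 times the genome level in 1 or more lists. One of them, from 6373063 to 6373734, was still called in all 4 with folds of 11.1, 9.33, 10.9 and 9.57. It is also the larger partner of a pair, with a neighbour from 6372533 to 6372828, 234 bp away, that only replicates 1 and 4 called. Without all peaks of such background, 181 regions remained on the arm.

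The strongest locus of the arm ran from 9929653 to 9930524. Strength was ranked by the number of lists and then by the median percentile of fold within a list, so the folds below describe a choice made on them. This region had folds of 20.9, 10.3, 15.7 and 17.2 in replicates 1 to 4, on 81, 31, 55 and 48 summit reads, and stood among the top 3 of the arm by fold in each of the 4 lists, which no other region did. Its median percentile was 99.0, against 98.7 at the region starting at 10946194, although its median fold was lower (16.4 against 17.1). Without the 1 that the fold adds to both, its median ratio of summit reads to background was 23.7. That was below those of 2 other named regions, the ones starting at 10946194 (27.4) and 1490215 (24.2). A further region among the 10 strongest, from 9945475 to 9946090, lay 15 kb away. It had folds of 15.4, 5.79, 10.9 and 12, and its 4 summits lay within 29 bp. Replicate 2 had the lowest fold at both regions, but each fold is on the scale of its own list. Within that list, replicate 2 stood at percentile 91.3 at the strongest locus and at 30.6 at this neighbour.

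The region from 10946194 to 10946866 ranked second and differed from the others in its order of lists. Its folds were 14.4, 9.76, 19.7 and 21.7, with 45, 18, 44 and 46 summit reads. Replicate 4 was highest here, and its value was the highest fold of the arm in any list, whereas replicate 1 was highest at 8 of the 10 strongest regions. Replicate 2 was lowest at 7 of the 10.

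The third, from 7968416 to 7968900, was the most even of the leading 3. Its folds were 18.5, 12.5, 14 and 12.2, and it gave replicate 2 its highest fold of the arm. The fourth, from 11485304 to 11485980, had folds of 15.7, 7.02, 12.4 and 12.2 over the same background, 1.34 times the genome level, in all 4 lists. With the strongest locus and its neighbour, these put 5 of the 10 strongest regions between 7 and 12 Mb.

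Another 4 of the 10 lay within 5 Mb of the telomere. The region from 1490215 to 1491306, with 1092 bp the widest of the arm, had folds of 17.1, 9.51, 10.4 and 15.4. The region from 1455394 to 1456125 lay 34.1 kb from it and had folds of 12.9, 10, 9.03 and 10.9 over a background of 3.41 to 5.02 times the genome level. The region from 1863749 to 1864382 varied most among the 10. Its folds were 19.9, 10.2, 14 and 6.20, and in replicate 4 it lay at percentile 40.6 of the list, on 16 reads.

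The region from 4471590 to 4472318 varied least of the 10, with folds of 13.0, 10, 10.8 and 11.6 (11.4 ± 1.26, SD, n = 4). The last of the 10, from 18433742 to 18434274, was the only one beyond 15 Mb. Its folds were 13.9, 6.58, 14 and 10.3.

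**Figure D4:**
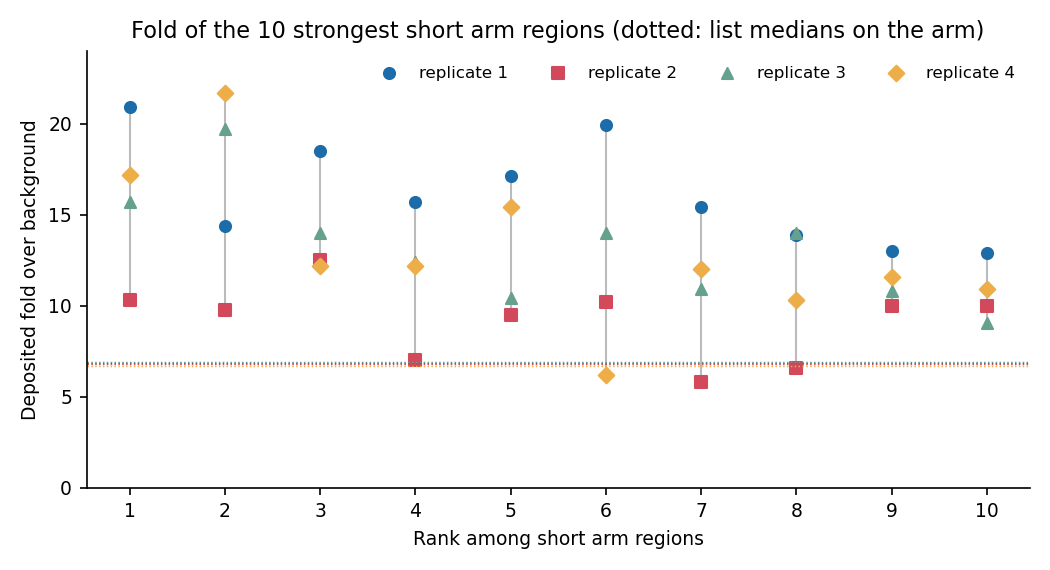
Fold over background as deposited (y axis) of the 10 strongest short arm regions, ordered by rank (x axis), with 1 symbol per replicate, a grey line over their range and dotted lines at the median fold of all arm peaks of each list. Replicate 2 is lowest at 7 of the 10, and the folds of 1 region spread by up to 6.20 to 19.9.

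The 3 highest folds of the arm in each list fell on 7 distinct regions, 5 of them among the 10 strongest. Of the other 2, the region from 3093953 to 3094389 had folds of 10, 12.3 and 7.52 in replicates 1, 2 and 3 and no peak in replicate 4. The region from 8477883 to 8478288 had folds of 12.5, 6.99, 16.1 and 7.63. The runner-up in width, from 6424778 to 6425787 (1010 bp), had folds of 13.6, 8.17, 13.6 and 9.14.

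The rank order of fold agreed between lists only in part. Over the 57 regions called in all 4 lists, Spearman's rho was 0.70 for replicates 1 and 3, 0.59 for 1 and 4 and 0.51 for 3 and 4. It was 0.34, 0.30 and 0.37 for replicate 2 with replicates 1, 3 and 4. These are across regions that share the input, with no test. Folds of replicate 2 rested on fewer reads, a median of 15 per member against 22, 17 and 17 in replicates 1, 3 and 4.

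In replicates 1, 3 and 4 the median fold was higher in regions called by more lists. In replicate 1 the 122 arm peaks of that list alone had a median fold of 5.62, those of regions called in 2 lists 6.89, in 3 lists 7.83 and in all 4 lists 10.29. In replicate 3 the medians were 5.69, 6.16, 6.93 and 9.16, and in replicate 4 5.06, 5.71, 6.32 and 8.43. Replicate 2 broke this order, with 4.85, 6.69, 6.38 and 7.13, but these rest on only 3, 6, 24 and 58 peaks. The lowest group of replicate 4 held 7 peaks. Peaks just outside the rule and just inside it overlapped widely, with folds up to 9.74 among those of replicate 1 alone and from 3.82 among its peaks in regions of 2 lists.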

How the data were processed

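Chromatin of LNCaP cells was fixed with formaldehyde, sonicated and pulled down with BG4. Per the submitters' processing notes, the tools were MACS2 2.1.1, SAMtools 1.11, Bowtie2 2.2.5 and bcl2fastq 1.8.4, on hg19, with settings not given in the sources used here. Each list was called on 1 replicate, and the input entered as background. The deposited lists hold a score (not used), the fold at the summit, its −log10 p and −log10 q, and positions.

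The lists hold 1746 to 6740 peaks. Those on chromosomes 1 to 22, X and Y were merged at 1 bp of overlap. Summit reads and background were recovered from the deposited fold (reads plus 1 over background plus 1) and −log10 p within 0.001 for each peak. The lowest background recovered in a list stands for its genome-wide level. The fewest reads on the arm were 7. Total depth is not in the lists. Merging and recovery returned 100% of 500 planted sites and 2000 simulated summits. The planted sites overlapped by design and the summits were simulated with the same formulas, so this checks the code and not the deposited lists.

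The list was the unit of the tests. The planned log ratio of the windows has no value for lists with 0 peaks, so the difference in peaks per Mb was tested; the test of background was added after the data were seen. Lengths of other chromosomes run from first to last peak, gaps included. The zinc finger window and arm limit were set by the choice of the regions. Regions named are the 10 strongest, the 3 highest folds of each list, the 2 widest, those beside borders, gaps and pairs. Gaps, pairs, the regions of high background and the single-list peaks were chosen after their values were seen. The regions and gene lists were chosen with earlier results of these data known. Alternatives were a minimum −log10 q of 3 or 5, equal list lengths, no peaks of at least 5 times the genome background, 50% overlap, summits within 100 bp, moved borders and each replicate left out. Genes under the regions were not analysed here, since the gene table is on GRCh38.p14 and coordinates were not converted. Computation used scipy 1.17.1, pandas 2.3.3 and numpy 2.4.6 in Python 3.11.15, with figures in matplotlib 3.10.9 and alignments in Biopython 1.88.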

Additional observations from a re-analysis of the deposited data

Results flagged for a closer look

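Of 33 quantities compared over the 4 lists, 1 had a list standing apart from the rest; chance marks about 1 in 20. Replicate 1 had 122 peaks on the arm that no other list shared, against 23 in the next list, 7 in replicate 4 and 3 in replicate 2. Replicate 1 also had the most peaks in all, 6740.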

How the results depend on the processing

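The densities of the first 20 Mb against the cluster window, of the arm against the rest of the genome and of the arm against the long arm, kept their direction under every alternative run. The mean ratio of median folds stayed above 1, at 1.01 to 1.05. With −log10 q in place of fold as the measure, the ratio of medians was 1.12. With lists of equal length the ratio of median folds was 1.01, with 2 of 4 lists above 1 (exact permutation test, p = 0.75). With only shared peaks 3 of 4 lists were above 1. With 4 or 3 lists no alternative can pass 0.05, the smallest p being 0.125 or 0.25, so this says nothing of stability. The density ratio of the windows ranged from 33.5 to 92 with 1 replicate left out and was 38.4 with only peaks of at least 2 times the genome background, a setting added after the data were seen. The arm against the rest gave 6.56 to 6.95 and against the long arm 1.43 to 1.52 with 1 replicate left out. With lists of equal length 106 regions were called in at least 2 lists and 41.5% of them in all 4. There were 114 in at least 3 lists and 57 in all 4, and 121 to 182 with 1 replicate left out, when 45.8% to 49.5% were called in all 3 remaining lists. Fewer lists or peaks set these counts by construction. Median gaps were 63.0 to 84.6 kb with 1 replicate left out. With runs of 2 guanines the motif share was 100% in cluster promoters and 96.5% in genes before it, and with loops of up to 12 bases it was 59.0% in genes before it; looser motifs match more sequences by construction. Dividing summit reads by background without the added 1 raised the median fold of all 14 named regions, to 13.9 for the lowest and 27.4 for the highest, by construction; that of the last region before the border moved from 8.05 to 16.3, that of the region starting at 11485304 from 12.3 to 23.7 and that of the region starting at 8477883 from 10.1 to 19.8. The annotation of regions and the search for motifs under them were not run, since they need hg19. No paired analysis was possible because all 4 pull-downs belong to 1 group, so replicate numbers pair no samples between groups; the permutation tests pair parts of the genome within a list. Depth limits the weakest summits, down to 7 reads on the arm.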
